A study of Mus musculus with 4 samples.

Results

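Semaphorins, plexins and neuropilins are a ligand and receptor family that guides growing axons and migrating cells. They were examined here in RNA-seq of primary mouse astrocytes. The members were chosen by gene symbol as every protein-coding gene named for semaphorin classes 3 to 7, a plexin or a neuropilin. This gave 31 genes of the 25393 listed, comprising 20 semaphorins, 9 plexins and 2 neuropilins, and all 31 passed the filter of a mean of at least 1 normalized count. The cells came from cortex and hippocampus of untreated C57BL/6 pups on postnatal day 1, either wild type (WT, 2 libraries) or labelled tet1-/-, a constitutive knockout of the 5-methylcytosine dioxygenase Tet1 (2 libraries, called KO-labelled). Each isolation used 2 mice, and the cells were grown for about 7 days, purified by shaking at 260 rpm and kept for 24 h more before RNA extraction. The study describes its RNA-seq samples as biological repeats and gives a larger number per genotype than was analysed here. The labels do not tie the 2 libraries of a genotype to separate cultures, and p-values measure only the spread between these libraries. With 2 libraries in each group, the smallest p that an exact two-sided permutation test allows for 1 gene is 0.333.

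Semaphorins are secreted or membrane-bound ligands that share an extracellular sema domain. Plexins are their main receptors and act on small GTPases of the Ras superfamily to reshape the cytoskeleton. Neuropilins have a short cytoplasmic tail and bind most secreted class 3 semaphorins in a complex with a class A plexin. In brain, glia are known both as a source of these cues and as cells that carry the receptors.

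Reads on genes numbered 18749610 and 22673555 in WT compared with 20702980 and 22403163 in the KO-labelled pair, in the order replicate 1 and replicate 2, which is kept throughout. Values are normalized counts, that is reads divided by a size factor per library, and 3 reads, taken as the detection floor, are 2.70 to 3.21 of them. Tet1 itself had 266 and 121 normalized counts in WT against 173 and 463 in the KO-labelled pair. The groups overlapped, and the log2 fold change was 0.66 ± 0.65 (SE, limma adjusted p = 0.691). The study reports Tet1 mRNA as almost undetectable in its knockout astrocytes. A gene-level count also includes any shortened transcript, and whether labels were mixed was not tested. The second group is therefore called the KO-labelled libraries or pair, and every direction below rests on that label. The labels also differed in Xist, as given below, so a difference in sex cannot be told apart from the label for any gene. The astrocyte marker Aldh1l1 had 4725 and 5999 in WT and 4452 and 2490.3 in the KO-labelled pair, and Gfap had 58004 and 67297 against 174853 and 9945. KO-labelled replicate 2 was thus the lowest of the 4 libraries for both markers.

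Sema4a and Sema6b were lower, and Sema5a and Sema7a higher, in both KO-labelled libraries than in both WT libraries. These 4 semaphorins are the members for which DESeq2 on the recovered reads gave an adjusted p under 0.05, out of 30 with an adjusted p (13.3%, against 6.5% of all genes). The share of all genes was 1.69% for higher and 4.8% for lower. By limma, the main test, 0 members and 0% of all genes reached an adjusted p under 0.05, and edgeR likewise called 0 members and 0% of genes. At an unadjusted p under 0.05 in limma, 7 of the 31 members differed (22.6%, against 13.7% of all genes), 2 higher and 5 lower in the KO-labelled pair, where all genes gave 4.54% and 9.18%. Over all genes 1004 were higher and 2028 lower, and quantile normalization moved this to 1371 and 1537 while the members stayed at 2 and 5. edgeR also had 7 members at an unadjusted p under 0.05, against 14.6% of all genes.

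Tet1 oxidises 5-methylcytosine, which in mammals lies mostly at CG dinucleotides, so the bases just before the start sites of these 4 genes are shown with every CG in capitals. They are the 150 bases upstream of the RefSeq start that lies nearest to the deposited 5′ end of the gene, written 5′ to 3′ on the strand of the gene.
Sema4a (GRCm38.p6 chr3:88461183-88461332, minus strand): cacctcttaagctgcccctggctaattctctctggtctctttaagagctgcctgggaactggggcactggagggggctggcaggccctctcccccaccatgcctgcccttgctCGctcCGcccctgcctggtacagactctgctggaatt
Sema6b (GRCm38.p6 chr17:56140344-56140493, minus strand): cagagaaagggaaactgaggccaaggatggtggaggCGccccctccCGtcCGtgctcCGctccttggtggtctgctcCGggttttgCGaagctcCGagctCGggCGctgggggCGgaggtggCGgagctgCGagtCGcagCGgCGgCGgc
Sema5a (GRCm38.p6 chr15:32244663-32244812, plus strand): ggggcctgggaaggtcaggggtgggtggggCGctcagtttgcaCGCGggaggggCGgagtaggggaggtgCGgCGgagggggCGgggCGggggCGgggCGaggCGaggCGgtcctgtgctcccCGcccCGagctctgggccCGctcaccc
Sema7a (GRCm38.p6 chr9:57939962-57940111, plus strand): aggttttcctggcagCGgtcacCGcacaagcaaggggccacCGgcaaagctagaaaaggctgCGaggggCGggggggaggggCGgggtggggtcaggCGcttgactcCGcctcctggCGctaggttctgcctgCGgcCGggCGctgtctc
The Sema4a stretch held 2 CG dinucleotides, while those of Sema6b, Sema5a and Sema7a held 16, 15 and 12. A window of 250 upstream bases was found for 26 of the 31 members, and the letters CG, which read the same on both strands, were in all 26 and in 92.1% of the 32851 windows in the RefSeq table. The median number of CG per window was 15.5 over the members, with a range of 1 to 39, and 6 over all windows. For each member only the window nearest the deposited 5′ end was kept, while all windows were counted without that choice. Neither the share nor the median therefore compares like with like. The nearest RefSeq start lay 37064 bases inside the deposited gene for Sema4d, which gave the value of 1, and 271370 for Sema3a. It lay 1611 bases inside for Plxna2, 535 for Sema3c, which gave the value of 39, and 469 for Nrp1. For Sema4g it lay 243 bases inside and for Sema5b 217, and for Sema3d it lay outside the gene (offset of -219 bases). These windows are therefore not at the deposited 5′ end. Sema4a had 2 CG in its window of 250 bases, Sema6b 20, and Sema5a and Sema7a 17 each. One lower gene and both higher genes therefore had CG-rich windows, and the other lower gene did not. These counts describe the sequence and say nothing of its methylation here, and Sema4a has further RefSeq starts inside the gene.

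**Figure D1:**
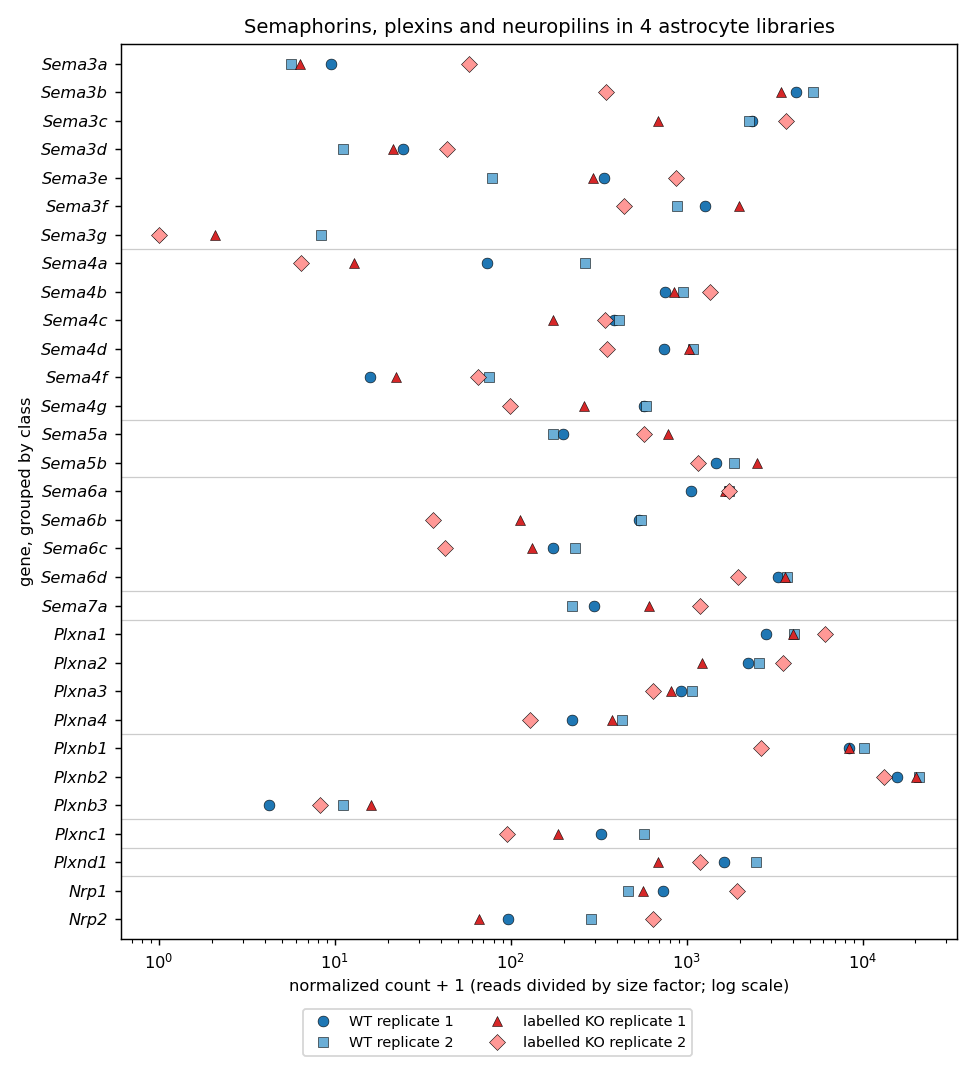
Normalized count + 1 (log scale, horizontal axis) of each of the 31 genes (vertical axis, grouped by class) in each of the 4 libraries, with one symbol per library. Sema4a and Sema6b lie to the left in both KO-labelled libraries, Sema5a and Sema7a to the right, while Sema3b and Nrp2 are spread apart between the 2 KO-labelled libraries.

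The family spans a wide range of levels. Per length, as FPKM computed from the recovered reads and the deposited gene lengths, 24 members had a mean of at least 1 over the 4 libraries and 8 had at least 10. Plxnb2 was the most abundant at 109 FPKM, followed by Plxnb1 at 37.1, Sema3b at 33.1 and Plxna1 at 22.6. Sema3c (15.4), Sema6d (14.3), Sema5b (11.8) and Sema3f (10.5) were the other members above 10 FPKM. The 4 semaphorins called by DESeq2 were not among these, with mean levels of 8.46 FPKM for Sema7a, 3.78 for Sema6b, 1.09 for Sema5a and 0.786 for Sema4a. Summed over the family, the level was 333 and 397 FPKM in WT and 320.0 and 273 in the KO-labelled pair. The labels did not overlap in summed FPKM, but they did in summed normalized counts, with 50808 and 63603 in WT against 54693 and 44542.

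**Figure D2:**
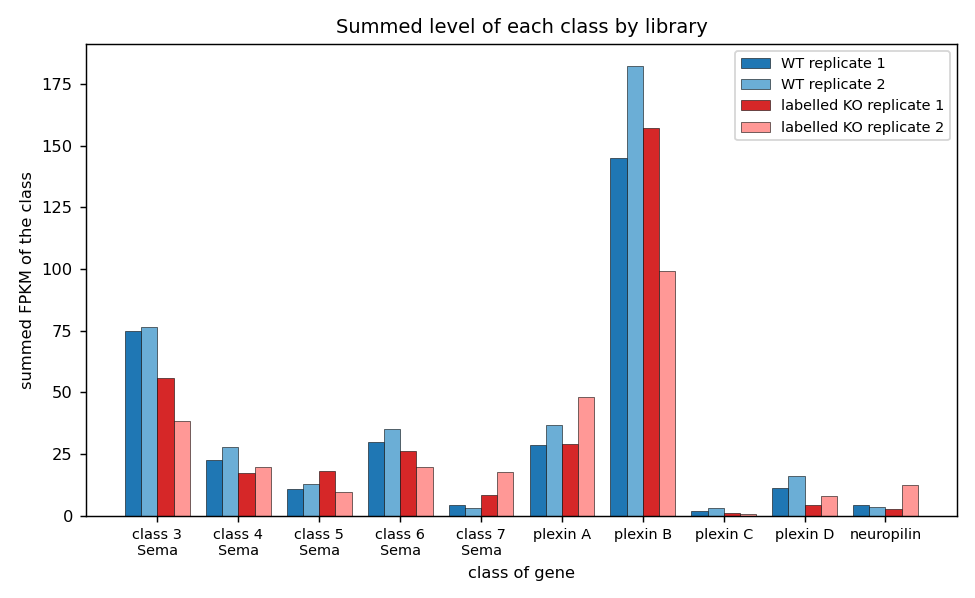
Summed FPKM (vertical axis) of the members of each class (horizontal axis) in each of the 4 libraries, one bar per library. Plexin B genes form the largest sum in every library, and the class 7 bar (Sema7a alone) is taller in both KO-labelled libraries.

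Class 3 semaphorins are the secreted ligands, which reach plexins mostly through neuropilins. Their summed level was 74.7 and 76.4 FPKM in WT and 55.8 and 38.5 in the KO-labelled pair, without overlap between the labels. Only 1 of the 7 genes, Sema3b, was itself without overlap (14.3%, against 47.9% of all genes). None of the 7 genes reached an unadjusted p under 0.05 in limma or an adjusted p under 0.05 in DESeq2. Sema3b, a ligand with a preference for neuropilin 2, had 4196 and 5227 normalized counts in WT against 3451 and 348 in the KO-labelled pair. Both KO-labelled libraries were below WT, but replicate 1 was close to the WT range and replicate 2 far below it, and the log2 fold change was -2.09 ± 1.05 (SE, limma adjusted p = 0.445). Sema3c, which binds neuropilins 1 and 2, had 2365 and 2258 in WT and 683 and 3683 in the KO-labelled pair. The 2 WT libraries were nearly equal and lay between the KO-labelled libraries, with a log2 fold change of -0.54 ± 0.79 (SE, limma adjusted p = 0.796).

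Sema3f, the classical neuropilin 2 ligand, had 1271 and 886 in WT and 1989.9 and 441 in the KO-labelled pair, which again lay on either side of WT, with a log2 fold change of -0.18 ± 0.73 (SE, limma adjusted p = 0.937). Sema3e, which binds plexin D1 without a neuropilin, had 339 and 77.2 in WT and 294 and 873 in the KO-labelled pair. WT replicate 2 was the lowest and KO-labelled replicate 2 the highest, and the groups overlapped, with a log2 fold change of 1.64 ± 0.87 (SE, limma adjusted p = 0.468). The make-up of the class therefore differed between libraries. By summed FPKM, the share of Sema3b among class 3 genes was 58.8% and 68.7% in WT and 58.5% and 9.38% in the KO-labelled pair, and that of Sema3c was 22.2% and 19.9% in WT and 7.74% and 66.4% in the KO-labelled pair. In KO-labelled replicate 2, Sema3c was the leading class 3 gene, as Sema3b was in the other 3 libraries. Sema3a, the growth cone collapsing factor, was near the floor in 3 libraries, at 8.54 and 4.6 in WT and 5.35 and 56.8 in the KO-labelled pair. Sema3d and Sema3g stayed at or below 0.2 FPKM on average.

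Class 4 semaphorins cross the membrane and carry an immunoglobulin domain. Sema4a (ENSMUSG00000028064), known from immune cells and retina, lies on the minus strand at chr3:88435959-88461182 (GRCm38), and a microRNA gene overlaps one of its exons on the same strand. It had 72.6 and 262 normalized counts in WT against 11.8 and 5.41 in the KO-labelled pair, or 167 ± 134 against 8.59 ± 4.5 (SD, n = 2). The WT libraries differed several-fold from each other, yet the lower of them was still above both KO-labelled libraries. The mean was 19.5-fold higher in WT, and limma gave a log2 fold change of -3.94 ± 0.84 (SE, limma adjusted p = 0.195). DESeq2 gave -4.30 ± 0.88 (SE, adjusted p = 8.38e-05). Over all 17 alternative settings the adjusted p ran from 8.38e-05 to 0.93, and with each library left out the limma log2 fold change ran from -4.86 to -3.02.

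Sema4g, which is reported to bind plexin B2, had 569 and 584 in WT and 260.1 and 98.2 in the KO-labelled pair. The WT libraries were nearly the same and both KO-labelled libraries were below them, with a log2 fold change of -1.84 ± 0.54 (SE, limma adjusted p = 0.273) and an unadjusted p of 0.0164. DESeq2 gave Sema4g an adjusted p of 0.0797. With each library left out its limma log2 fold change ran from -2.54 to -1.14. Sema4c, a ligand of plexin B2, had 386 and 410.1 against 172 and 343. Both KO-labelled libraries were below WT, but replicate 2 was near WT and the log2 fold change was -0.71 ± 0.44 (SE, limma adjusted p = 0.533). A gene on the opposite strand overlaps an exon of Sema4c. Sema4d, the ligand of plexin B1 that is also called CD100, had 744 and 1079.6 against 1037 and 352, with overlapping groups, with a log2 fold change of -0.57 ± 0.58 (SE, limma adjusted p = 0.698). Sema4b had 756 and 949 against 851 and 1364, and its log2 fold change was 0.35 ± 0.36 (SE, limma adjusted p = 0.704). Neither Sema4b nor Sema4d differed by more than the spread between libraries.

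Microglia, which astrocyte cultures can hold, are known to express class 4 semaphorins, and their marker genes were lower together with Sema4a. All 13 microglia and macrophage markers were lower in the KO-labelled pair, 12 of them without overlap (25.4% of all genes), and their median log2 fold change was -3.49. Their summed level was 48.2 and 96.7 FPKM in WT and 7.24 and 6.96 in the KO-labelled pair. C1qa was the most abundant at 8.74 FPKM. Aif1 had 48 and 116 normalized counts in WT against 5.35 and 2.7 in the KO-labelled pair, and P2ry12 was at 0 in KO-labelled replicate 1 and at or below 6.4 elsewhere. WT replicate 2 was the higher WT library for the summed markers and for Sema4a. In such bulk samples fewer cells of a type and less RNA per cell cannot be told apart, and the part of microglia in the Sema4a result was not tested.

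Class 5 semaphorins carry thrombospondin repeats next to the sema domain. Sema5a (ENSMUSG00000022231) lies on the plus strand at chr15:32244810-32696341 (GRCm38), and no exon of another gene overlaps it. Normalized counts were 197 and 173 in WT against 785 and 569.6 in the KO-labelled pair, or 185 ± 17.3 against 677 ± 152 (SD, n = 2). Replicates were close in both groups, and the mean was 3.66-fold higher in the KO-labelled pair. The limma log2 fold change was 1.85 ± 0.35 (SE, limma adjusted p = 0.169), and DESeq2 gave 1.87 ± 0.48 (SE, adjusted p = 0.00326). Its adjusted p ran from 0.00326 to 0.93 over the alternatives, and the log2 fold change from 1.62 to 2.08 with each library left out. Sema5b, the other member of the class, was more abundant per length, with 1462 and 1856 in WT and 2525 and 1164 in the KO-labelled pair. The latter lay on either side of WT, with a log2 fold change of 0.058 ± 0.45 (SE, limma adjusted p = 0.968).

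Class 6 semaphorins are transmembrane ligands of class A plexins and can also signal into the cell that carries them. Sema6b (ENSMUSG00000001227) lies on the minus strand at chr17:56123085-56140343 (GRCm38), and no exon of another gene overlaps it. It had 535 and 552 in WT and 112 and 35.2 in the KO-labelled pair, or 543 ± 12.2 against 73.8 ± 54.6 (SD, n = 2). The WT libraries were almost equal and both KO-labelled libraries were far below them, with replicate 2 the lower. The mean was 7.36-fold higher in WT. The limma log2 fold change was -3.09 ± 0.62 (SE, limma adjusted p = 0.179), and DESeq2 gave -2.88 ± 0.66 (SE, adjusted p = 0.000675). The alternatives gave an adjusted p from 0.000675 to 0.935, and leaving out each library gave log2 fold changes from -3.91 to -2.26.

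The other class 6 genes differed less. Sema6c had 173 and 231 in WT and 131 and 41.5 in the KO-labelled pair, without overlap but with a log2 fold change of -1.43 ± 0.65 (SE, limma adjusted p = 0.418). Sema6d, a plexin A1 ligand and the most abundant of the class, had 3324 and 3717 against 3633 and 1950.5. KO-labelled replicate 1 lay inside the WT range and replicate 2 below it, with a log2 fold change of -0.40 ± 0.38 (SE, limma adjusted p = 0.678). Sema6a, a ligand of plexins A2 and A4, had 1063 and 1749 against 1647 and 1731, and its log2 fold change of 0.31 ± 0.35 (SE, limma adjusted p = 0.728) was smaller than the difference between the WT libraries.

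Sema7a (ENSMUSG00000038264) is the only class 7 gene and encodes a ligand held by a lipid (GPI) anchor, which binds β1 integrins and plexin C1. It lies on the plus strand at chr9:57940112-57962865 (GRCm38), and no exon of another gene overlaps it. It had 294 and 223 in WT against 611 and 1183 in the KO-labelled pair, or 259 ± 50.2 against 897 ± 404 (SD, n = 2). Both KO-labelled libraries were above both WT libraries, with replicate 2 the higher, and the mean was 3.46-fold higher. The limma log2 fold change was 1.72 ± 0.44 (SE, limma adjusted p = 0.232), and DESeq2 gave 1.79 ± 0.55 (SE, adjusted p = 0.0216). Over the alternatives the adjusted p was 0.0216 to 0.93, and without each library in turn the log2 fold change was 1.25 to 2.20.

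The 2 receptors of Sema7a differed in opposite directions. Plxnc1, the plexin that binds it, had 325 and 569 in WT and 185 and 94.6 in the KO-labelled pair. Both KO-labelled libraries were below WT, with a log2 fold change of -1.69 ± 0.51 (SE, limma adjusted p = 0.284) and an unadjusted p of 0.0193, while DESeq2 gave an adjusted p of 0.0732 (range over the alternatives 0.0732 to 0.935). With each library left out the limma log2 fold change of Plxnc1 ran from -2.17 to -1.21. An unconfirmed gene model on the same strand overlaps an exon of Plxnc1. Plxnc1 is also known from myeloid cells, whose markers were lower as described for Sema4a, and their part in this result was not tested. Itgb1, which encodes integrin β1, had 7411 and 9337 in WT and 26486 and 32006 in the KO-labelled pair. These did not overlap either, with a log2 fold change of 1.81 ± 0.33 (SE, limma adjusted p = 0.161) and a call by DESeq2.

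**Figure D3:**
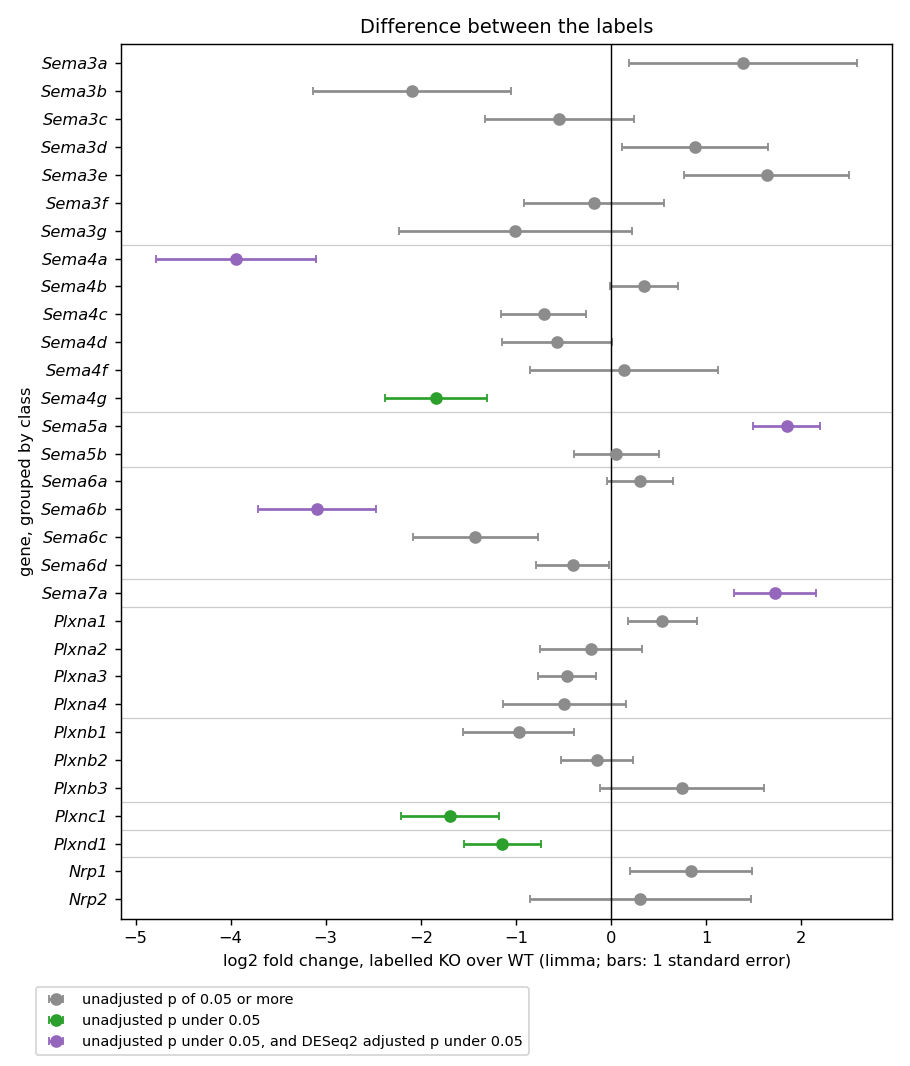
Log2 fold change between the labels (horizontal axis, points, limma) with 1 standard error (bars) for each of the 31 genes (vertical axis, grouped by class), coloured by test result. Of the 7 genes with an unadjusted p under 0.05, Sema5a and Sema7a lie above 0 and Sema4a, Sema4g, Sema6b, Plxnc1 and Plxnd1 below it.

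Class B plexins bind class 4 semaphorins and had the largest summed FPKM of the plexin classes in every library. This sum came from Plxnb2 and Plxnb1, while Plxnb3 had a mean of 0.0646 FPKM. In KO-labelled replicate 2, Plxna1 (33.3 FPKM) was above Plxnb1 (13.8 FPKM). Plxnb2, which is known from neural progenitors and glia, held 54.1% and 54.9% in WT and 61.3% and 54.8% in the KO-labelled pair as its share of the summed plexin FPKM. It had 15603 and 21063 normalized counts in WT against 20086 and 13289 in the KO-labelled pair, with overlapping groups and a log2 fold change of -0.15 ± 0.38 (SE, limma adjusted p = 0.89). Plxnb1, the receptor of Sema4d, had 8421 and 10241 against 8429 and 2663. KO-labelled replicate 1 was next to the lower WT library and replicate 2 was well below it, and the log2 fold change was -0.97 ± 0.58 (SE, limma adjusted p = 0.515). An antisense gene overlaps an exon of Plxnb1, and whether the counting used strand is not given in the sources used here.

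Class A plexins are the signalling partners of neuropilins and the receptors of class 6 semaphorins. Plxna1 had 2826 and 4082 in WT and 4008 and 6083 in the KO-labelled pair, and its log2 fold change was 0.54 ± 0.36 (SE, limma adjusted p = 0.562). It is also overlapped by an antisense gene. Plxna2 had 2226 and 2589 against 1223 and 3527, so that the KO-labelled libraries lay on either side of WT, with a log2 fold change of -0.21 ± 0.54 (SE, limma adjusted p = 0.892). Plxna3 had 926 and 1075 against 809 and 645, which did not overlap, but its log2 fold change was only -0.46 ± 0.30 (SE, limma adjusted p = 0.549). Plxna3 and Plxnb3 lie on the X chromosome, and the libraries differed in Xist, the RNA of the inactive X, with 8.54 and 0.92 in WT and 2896 and 13367 in the KO-labelled pair. A difference in sex between the pooled animals cannot be told apart from the label. This holds for every member and every list, not only for genes on the X chromosome.

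Plxnd1, the receptor of Sema3e, had 1630.3 and 2471 in WT and 689 and 1194 in the KO-labelled pair. Both KO-labelled libraries were below both WT libraries, with a log2 fold change of -1.14 ± 0.41 (SE, limma adjusted p = 0.336) and an unadjusted p of 0.0339, while DESeq2 gave an adjusted p of 0.247 (range over the alternatives 0.247 to 0.935). With each library left out its limma log2 fold change ran from -1.54 to -0.75. Plxnd1 is best known from endothelium. The endothelial markers summed to 0.204 and 0.478 FPKM in WT and 0.297 and 0.623 in the KO-labelled pair, and Cdh5 was at 0 in WT replicate 1. Of 8 endothelial markers 5 were listed, and Esam was the most abundant at 0.14 FPKM. At an unadjusted p under 0.05 in limma were 0 (against 13.7% of all genes). By the limma log2 fold change 2 were higher and 3 lower, with a median of -0.43. Lower without overlap were Vwf and Tek (40%, against 25.4% of all genes), and higher Cdh5 (20%, against 22.5%). Vwf had 21.3 and 46.9 normalized counts in WT against 15 and 18.9 in the KO-labelled pair, and Tek 5.33 and 7.36 against 4.28 and 4.51. The part of endothelial cells in the Plxnd1 result was not tested.

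Neuropilins differed more between the 2 KO-labelled libraries than between the labels. Nrp1 had 734 and 461 in WT and 563 and 1926 in the KO-labelled pair, with a log2 fold change of 0.84 ± 0.64 (SE, limma adjusted p = 0.606). Nrp2 had 96 and 284 against 65.3 and 639.9, which was both the lowest and the highest of the 4 libraries, with a log2 fold change of 0.31 ± 1.16 (SE, limma adjusted p = 0.932). KO-labelled replicate 2 was the highest library for both genes, and a microRNA gene overlaps an exon of Nrp1 on the same strand. The remaining 6 members (Plxna4, Plxnb3, Sema3a, Sema3d, Sema3g and Sema4f) had 0.0221 to 0.976 FPKM, log2 fold changes from -1.01 to 1.39 and adjusted p-values of at least 0.638 (limma). Sema3g was at 0 in WT replicate 1 and KO-labelled replicate 2.

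Libraries of the same label differed widely for many members. Of the 26 members with a mean of at least 50 normalized counts, 14 (53.8%) differed more than 2-fold between the 2 KO-labelled libraries, against 28.6% of all 12868 genes at that level. Between the WT libraries it was 3 members (11.5%), against 10.7% of genes, with Nrp2 and Sema4a higher in replicate 2 (4.62% of genes) and Sema3e higher in replicate 1 (6.03%). In the KO-labelled libraries, 5 members were more than 2-fold higher in replicate 2 (14.4% of all genes) and 9 in replicate 1 (14.2%). The largest differences were 3.27 for Nrp2 and 2.43 for Sema3c on the log2 scale, replicate 2 minus replicate 1, and -3.31 for Sema3b and -2.17 for Sema3f in the other direction. Nrp1, Nrp2, Sema3c, Sema3e and Plxna2 were the 5 members higher in replicate 2. These 2 libraries also stood apart in their marker genes. The 10 astrocyte markers summed to 1502 and 1447 FPKM in WT and 2586 and 387 in the KO-labelled pair, and Gfap was the most abundant. By the limma log2 fold change 8 of these markers were lower in the KO-labelled pair, 5 of them without overlap (25.4% of all genes), although Gfap and Aldoc, which are among the 8, had higher group means there. The median log2 fold change was -0.63. Slc1a2, a glutamate transporter, had 11394 and 5793 normalized counts in WT against 3078 and 597 in the KO-labelled pair, with a log2 fold change of -2.58 ± 0.82 (SE, limma adjusted p = 0.301). Sox9, a glial transcription factor, had 11852 and 9440.3 against 6788 and 3362, with a log2 fold change of -1.15 ± 0.43 (SE, limma adjusted p = 0.351). These were the 2 astrocyte markers with an unadjusted p under 0.05 (20% of the list, against 13.7% of all genes). The 10 mural and meningeal markers summed to 83.6 and 276 in WT and 596 and 1420.3 in the KO-labelled pair, mostly Acta2, while Lum was at 0 in KO-labelled replicate 1. By the limma log2 fold change 4 of these were higher and 6 lower, with 2 in each direction at an unadjusted p under 0.05. These made up 40% of the list, against 13.7% of all genes (4.54% higher and 9.18% lower). DESeq2 called Acta2 higher (adjusted p = 0.00958), 1 of 8 with an adjusted p (12.5%, against 6.5% of all genes). The part of these markers in the differences and in the spread of the family was not tested.

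**Figure D4:**
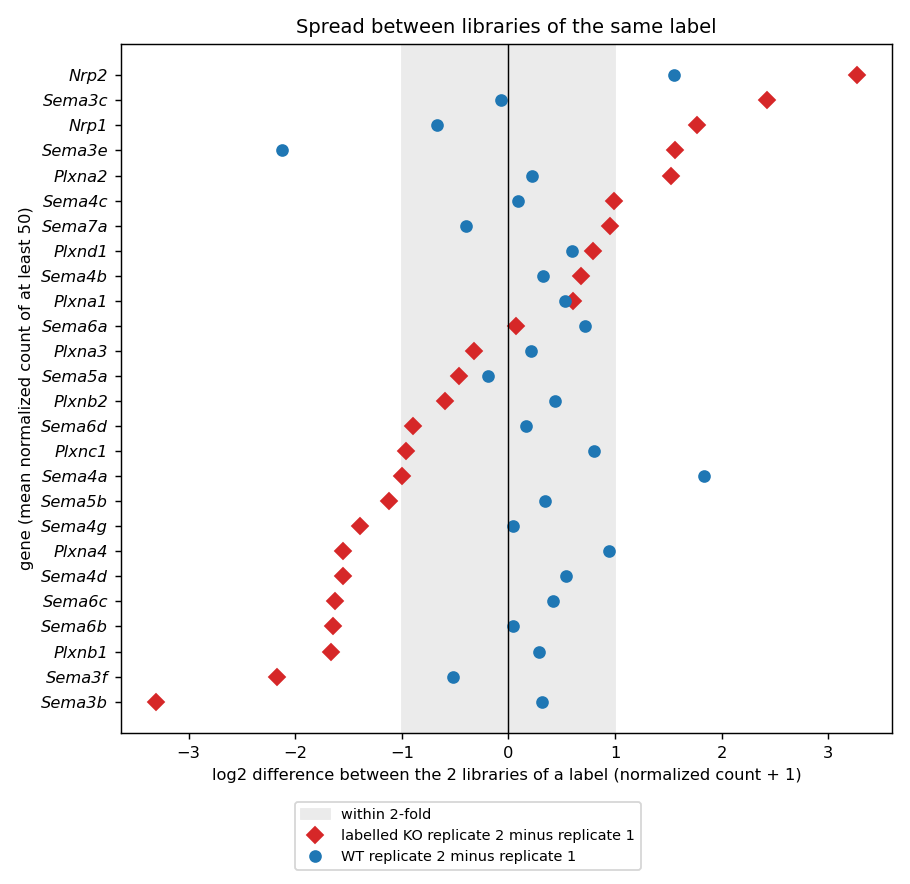
Log2 difference between the 2 libraries of a label (horizontal axis, replicate 2 minus replicate 1) for the 26 members with a mean of at least 50 normalized counts (vertical axis), with the range within 2-fold shaded. Of the KO-labelled differences (diamonds) 14 lie outside the shaded range, and of the WT differences (circles) 3.

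Over the whole family the median log2 fold change was -0.21, against -0.068 over all 22094 genes tested. By this measure 13 members were higher and 18 lower. The groups did not overlap for 11 of 31 members (35.5%), 2 higher and 9 lower, against 47.9% of all genes (22.5% higher and 25.4% lower). At an unadjusted p under 0.05 were 5 of 20 semaphorins (25%), 2 of 9 plexins (22.2%) and 0 of 2 neuropilins, against 13.7% of all genes in limma. These counts used all 4 libraries. The number of members at that level fell when a WT library was left out, but not when a KO-labelled one was. Without WT replicate 2 the members at an unadjusted p under 0.05 were 1 higher and 0 lower, against 2.19% and 4.06% of all genes. Without WT replicate 1 they were 1 and 1, against 1.24% and 3.9%. Without KO-labelled replicate 1 they were 5 and 10 (8.24% and 13.7% of genes), and without KO-labelled replicate 2 they were 2 and 6 (4.1% and 9.28%). The shares of all genes thus moved with the same libraries.

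Other genes of the pathway were taken from 2 lists. Of 19 co-receptors, further receptors and further ligands of the family, 18 were listed, and 7 (38.9%) had a limma p under 0.05 before adjustment, of which 2 were higher and 5 lower (all genes 13.7%, 4.54% and 9.18%). Their median log2 fold change was -0.055, close to that of all genes, and DESeq2 also called these 7 (6.5% of all genes). Itgb1 was the most abundant. Nrcam, an adhesion molecule that joins neuropilin 2 complexes, had 1431 and 1162 in WT and 3763 and 3555 in the KO-labelled pair (mean 2.82-fold higher, adjusted p = 0.165, limma). Chl1, a related adhesion molecule that works with neuropilin 1, had 4441 and 2237 against 489 and 281, the opposite direction, with a log2 fold change of -3.08 ± 0.47 (SE, limma adjusted p = 0.137). Pgf, the placental growth factor, which binds neuropilins, had 130.2 and 129 against 18.2 and 6.31, with a log2 fold change of -3.46 ± 0.69 (SE, limma adjusted p = 0.175). In each of these the groups were clearly apart. The remaining lower genes are expressed by myeloid or other immune cells. Trem2 and Tyrobp, which join plexin A1 in a receptor complex, had 77.9 and 124 against 7.49 and 3.61 and 99.2 and 244 against 17.1 and 13.5. Cd72, a Sema4d receptor of lymphocytes, had 114 and 385 against 15 and 30.6. They were lower together with the microglia markers, whose part was not tested.

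The second list held the cytoplasmic effectors of plexins and neuropilins. All 33 were tested in limma, and 1 was higher at an unadjusted p under 0.05 (3.03%, against 4.54% of all genes) and 0 were lower (against 9.18%). DESeq2 called 0 (against 6.5%), and the median log2 fold change was 0.28. That gene was Cfl1, the actin-severing protein cofilin and the most abundant of the list at 499.6 FPKM. It had 11883 and 19968 in WT and 28788 and 37433 in the KO-labelled pair, with a log2 fold change of 1.09 ± 0.41 (SE, limma adjusted p = 0.351). The groups did not overlap for 15 effectors (45.5%, against 47.9% of all genes). Of these 13 were higher (39.4%, against 22.5%) and 2 lower (6.06%, against 25.4%).

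**Figure D5:**
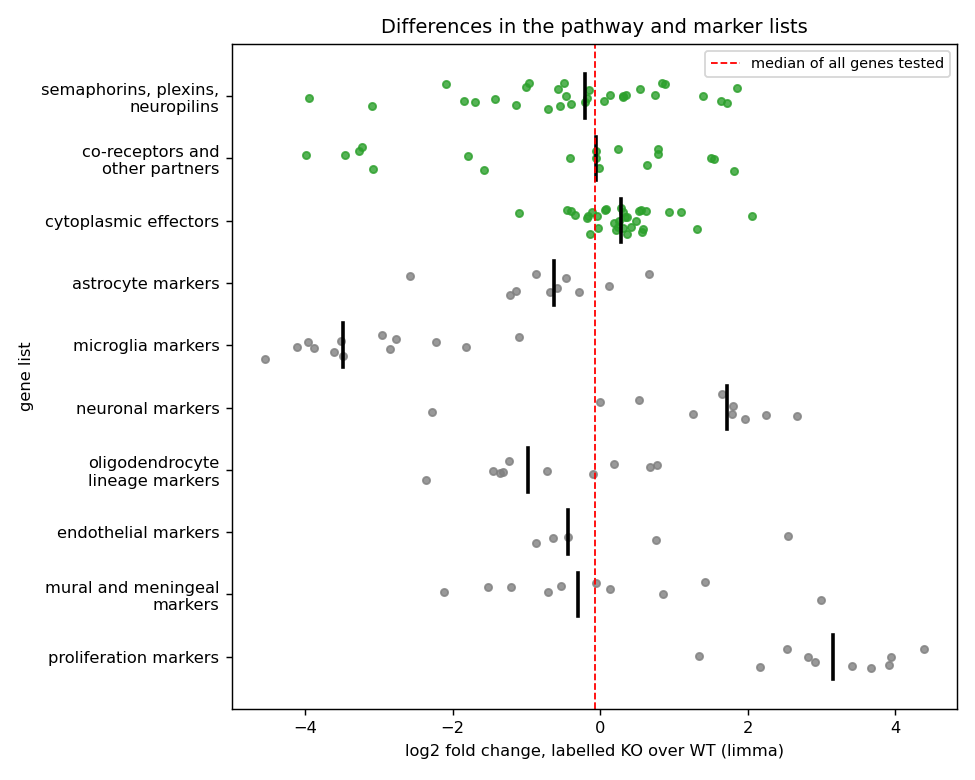
Log2 fold change between the labels (horizontal axis, limma) of each tested gene in the family, the 2 pathway lists and the 7 marker lists (vertical axis), with the median of each list as a black bar and that of all genes as a dashed line. The family median is -0.21 and that of its effectors 0.28, on either side of the dashed line. Microglia (-3.49), oligodendrocyte (-0.98), astrocyte (-0.63), endothelial (-0.43) and mural and meningeal (-0.29) medians lie below it, and neuronal (1.72) and proliferation (3.16) medians above it.

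The remaining marker lists give the state of the cultures. All 10 proliferation markers were higher in the KO-labelled pair without overlap (22.5% of all genes), with a median log2 fold change of 3.16 and summed levels of 4.73 and 16 FPKM in WT and 37.9 and 69.2 in the KO-labelled pair. Mcm2 was the most abundant. Of 12 neuronal markers 11 were listed, Stmn2 was the most abundant at 13.4 FPKM, and Snap25 and Nefl were at 0 in both WT libraries. They summed to 20.3 and 23.8 FPKM in WT and 29.1 and 30.2 in the KO-labelled pair. Of the 10 tested, 8 were higher, 6 of them without overlap (22.5% of all genes), and the median log2 fold change was 1.72. Several of these 6 genes were near the floor, such as Dcx with 1.07 and 0 normalized counts in WT against 7.49 and 4.51. Slc17a7, also among the 6, had 1 read in each of 3 libraries and was without overlap only through the size factors. The abundant Stmn2 and Map2 had overlapping groups and log2 fold changes of 0.53 and -0.0082. DESeq2 called Tubb3, a neuronal tubulin with 52.3 and 80.9 normalized counts in WT against 170.2 and 307, and Gad1, a GABA-synthesizing enzyme that was lower, with 152 and 74.5 against 15 and 29.7. The 10 oligodendrocyte lineage markers summed to 217 and 324 against 431 and 244, mostly Olig1, while Sox10, Mag and Mog were near the floor. By the limma log2 fold change 7 of these were lower and 3 higher, with a median of -0.98. Lower without overlap were 2 (20%, against 25.4% of all genes), and higher 1 (10%, against 22.5%). DESeq2 called 1 of 7 with an adjusted p (14.3%, against 6.5% of all genes). This was Cspg4, with 330 and 413 normalized counts in WT against 39.6 and 128 in the KO-labelled pair. The part of proliferation and of these cell types in the differences of the family was not tested.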

How the data were processed

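RNA-seq of 4 astrocyte libraries (2 WT, 2 labelled Tet1 KO) was analysed. Per the study methods, filtered paired-end reads were mapped by the authors (mm10 in the submitters' processing notes). The aligner, counter, annotation release and strand setting are not given in the sources used here. Each gene has 1 deposited signal value for each library, in a table whose name speaks of FPKM, but 100% of the values were whole multiples of 1 read (within 0.01 read), without length correction, so whole reads were recovered and the values are called normalized counts. The planned test was kept on this unit. The deposited log2 fold changes and p-values of the authors, and their means per genotype, were not used.

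Genotypes were compared with limma 3.58.1 (R 4.3.3; eBayes with a trend) on log2(normalized count + 1), a scale that understates changes of low genes. Genes averaging 1 or more entered (22094), and p-values were adjusted by Benjamini-Hochberg's method over all of them. edgeR 4.0.16 (quasi-likelihood test; 16292 genes, 0 called at an adjusted p under 0.05, 2377 at an unadjusted one) and DESeq2 1.42.0 (1106 genes called) used the recovered reads. Deposited gene lengths, with these reads and their totals, gave FPKM. Exon overlaps came from GENCODE M21 on GRCm38, in which all 31 members had the deposited start and end. Promoter sequences came from RefSeq (GRCm38.p6). The fits were tested on simulated counts, whose results are not reported here. Libraries of a label differed by more than sampling noise (median chi-square per gene 8.04 in WT and 27.1 in the KO-labelled libraries, against 0.455).

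The members and gene lists were chosen with earlier results of these data known. Values in every library are given for members with a mean FPKM of at least 1, an unadjusted limma p under 0.05 or a DESeq2 call, and Tet1 and the pathway genes at an unadjusted p under 0.05 or called by DESeq2 are also named. Genes outside this rule are marker genes, Sema3a, 4 effectors picked for their spread, and the effectors Mical2 and Crmp1. One marker gene of the planned lists is not reported here.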

Additional observations from a re-analysis of the deposited data

How the results depend on the processing

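All 17 alternatives were run. The count of members at an adjusted p under 0.05 was 0 in limma and stayed at 0 in every alternative except DESeq2, which called 4. The family median log2 fold change of -0.21 was -0.083 with DESeq2, -0.062 with edgeR, -0.083 with edgeR and DESeq2 size factors, -0.13 with edgeR without a filter and -0.30 with quantile normalization, and -0.48 to -0.021 with each library left out. The cause was not tested, apart from the fewer members (29) that edgeR's filter keeps. Without the trend in eBayes the members lower at an unadjusted p under 0.05 were 4 in place of 5. With each library left out, members at an unadjusted p under 0.05 numbered 1 to 5 higher (1.24% to 8.24% of all genes) and 0 to 10 lower (3.9% to 13.7%), and members without overlap 16 to 27 (64.3% to 80.1% of all genes), since fewer libraries overlap less. A lone library is assumed there to vary like the other group. Of the 31 members, 17 kept the direction of their log2 fold change in every alternative that gave one, among them all 7 with an unadjusted p under 0.05. Directions opposite to limma were 0.17 for Sema3f and -0.067 for Sema4f under DESeq2, -0.0078 for Sema4f under FPKM as the tested value, 0.0013 for Plxna2 and 0.16 for Sema3f and -0.026 for Sema4f under edgeR, 0.17 for Sema3f and -0.067 for Sema4f under edgeR with DESeq2 size factors, 0.14 for Sema3f and -0.092 for Sema4f under edgeR without a filter, -0.066 for Sema5b under quantile normalization. With each library left out the ranges that crossed 0 were -0.047 to 1.73 for Nrp1, -1.33 to 1.95 for Nrp2, -0.97 to 0.55 for Plxna2, -1.27 to 0.28 for Plxna4, -0.45 to 0.15 for Plxnb2, -0.20 to 2.98 for Sema3a, -1.76 to 0.67 for Sema3c, -1.27 to 0.91 for Sema3f, -2.54 to 0.52 for Sema3g, -1.34 to 0.21 for Sema4d, -0.98 to 1.26 for Sema4f, -0.50 to 0.62 for Sema5b, -0.051 to 0.67 for Sema6a, -0.85 to 0.048 for Sema6d. Another scaling moved the median of all genes from -0.068 to 0.061 (quantile normalization). Deviations of libraries with the same replicate number had a correlation of -0.084 over genes, and of -0.11 over those averaging 50 or more normalized counts. Each label gives a single difference between its libraries for this, so whether libraries with the same number were prepared together was not tested. With the replicate number as a block, the counts were 2 higher and 5 lower at an unadjusted p under 0.05 and 0 at an adjusted one, the same as without it. Read depth limits the members near the floor (Sema3a, Sema3g and Plxnb3).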

Other observations

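Rock1 and Rock2, the kinases through which plexin B acts on myosin, were among the effectors with the widest spread between libraries of the same label. In normalized counts, Rock2 had 3743 and 939 in WT against 676 and 7229 in the KO-labelled pair, and Rock1 had 1057 and 288 against 209.8 and 1252. In both genes WT replicate 1 and KO-labelled replicate 2 were the high libraries. Rnd1, a GTPase that binds class B plexins, had 2327 and 2246 against 1519 and 6114, with only KO-labelled replicate 2 standing apart. Dpysl5, a collapsin response mediator protein, had 1403 and 2710.0 against 4213 and 1219, with KO-labelled replicate 1 the highest and replicate 2 the lowest. All 4 effectors were picked after their values were known. Mical2 and Crmp1 were also widely spread, with log2 differences of 3.38 and 2.11 between the KO-labelled libraries (replicate 2 minus replicate 1). None of these differed between the labels at an unadjusted p under 0.05 (limma).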
